A study of Arabidopsis thaliana with 6 samples.

Results

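Transcripts of 53 genes of DNA replication, cyclins, cyclin-dependent kinases and mitosis were followed in seedlings of Arabidopsis thaliana, out of 32424 loci in the expression table. The genes were chosen as a list of TAIR gene identifiers, without a threshold on any measured value, and all 53 had a locus in the table. They were sorted by textbook role into 23 genes of S phase (origin licensing, the replication fork, deoxynucleotide synthesis and the A3-type cyclins), 20 genes of G2 and mitosis (the A2- and B-type cyclins, the B-type kinases and the machinery of mitosis and cytokinesis) and 10 genes of cell cycle entry and its regulation (the D3-type cyclins, CDKA;1, the E2F factors, RBR1 and the MYB3R factors). The seedlings were wild type, of the Col-0 accession, and stood in liquid diluted MS medium with sucrose that held either N-linolenoylethanolamine (NAE 18:3) at 100 µM or the solvent DMSO at 0.07% for 1 h. NAE 18:3 is an N-acylethanolamine, the ethanolamide of linolenic acid. The labels give the age at transfer as 4 days in the treatment text and as 3 days in the growth text, and they do not give the DMSO content of the NAE 18:3 medium. Each group held 3 libraries from separate biological replicates of whole seedlings.

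Plant cells enter the cell cycle when D-type cyclins, acting with the kinase CDKA;1, phosphorylate the retinoblastoma protein RBR1 and so release E2F transcription factors, which switch on the genes of DNA replication. Later in the cycle MYB3R factors bind MSA elements (mitosis-specific activators) in the promoters of B-type cyclins and of other genes used in mitosis and cytokinesis. In young seedlings these genes are active in dividing cells, chiefly in the root and shoot meristems, in leaf primordia and in the stomatal lineage.

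Nearly all of these genes that could be tested were lower after 1 h of NAE 18:3. Values are FPKM, the number of mapped fragments scaled to transcript length and library size, and a locus was tested when its mean over the 6 libraries was at least 1 FPKM, which 50 of the 53 genes reached. Of these 50 genes, 47 (94%) were lower and 2 were higher in NAE 18:3 (limma, Benjamini-Hochberg adjusted p under 0.05 over all 18194 loci tested), and 1 was not called. Over all loci 39.2% were lower, 44.1% were higher and 83.2% were called either way by the same rule. A fall of at least 2-fold was found for 38 of the 50 genes and for 17.2% of all loci, and a rise of that size for 0 of the 50 genes and 18.4% of all loci. The 3 values of each group lay apart, with NAE 18:3 lower, for 47 of the 50 genes and for 39.7% of all loci. They lay apart with NAE 18:3 higher for 1 gene and for 44.9% of all loci, and in either direction for 84.6% of all loci. On the log2(FPKM + 1) scale, the median change from DMSO to NAE 18:3 was -1.49 for the 50 genes and 0.06 for all loci, whose quartiles were -0.64 and 0.73. Because genes at low levels can pass the filter through the group in which they are high, the fit was repeated with no filter, where 49 of all 53 genes were lower and 1 was higher. Over all 32424 loci of that fit, 7897 were lower and 8146 were higher.

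Whole seedlings were extracted, so fewer dividing cells and less RNA per dividing cell cannot be told apart. Summed over the 53 genes, the level was 953, 963 and 943 FPKM in the DMSO libraries and 335, 342 and 343 FPKM in the NAE 18:3 libraries. The libraries of each group lay close together and the groups were far apart.

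**Figure D1:**
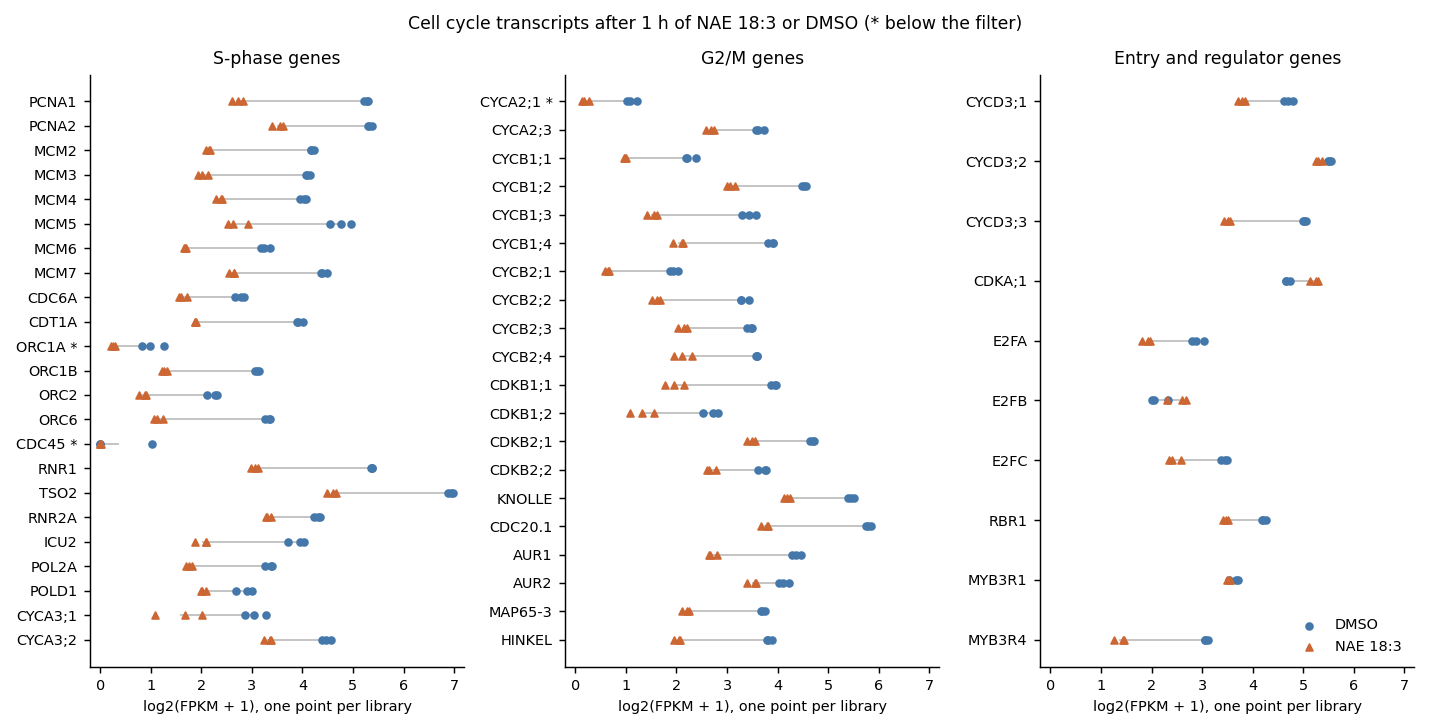
Level of each gene in each library, as log2(FPKM + 1) on the horizontal axis, for the S-phase, G2/M and entry and regulator genes. Circles are DMSO libraries, triangles NAE 18:3 libraries and grey lines join the group means, and an asterisk marks the 3 genes below the filter. CDKA;1 and E2FB are the genes with the NAE 18:3 mean on the right.

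The promoters of the S-phase and the G2/M genes carried different motifs. In the 300 bases before the annotated gene start, an E2F-type motif (TTTCCCGC, TTTCCCGG, TTTGGCGC or TTTGGCGG on either strand) was present at 9 of 23 S-phase genes, 0 of 20 G2/M genes and 2 of 10 entry and regulator genes (CYCD3;3 and RBR1), against 2.16% of 27443 protein-coding promoters. The extended MSA motif (CNAACGG on either strand) was present at 9 of the 20 G2/M genes, 2 of the 23 S-phase genes and 5.24% of all promoters. Its core AACGG, which is part of every extended match, was present at 16 of the 20 G2/M genes, 6 of the 23 S-phase genes and 23.4% of all promoters. The site II motif TGGGCC, known from proliferation genes such as PCNA, was present at 12 of the 23 S-phase genes, 1 of the 20 G2/M genes and 14.6% of all promoters. The telobox AAACCCTA was present at 3 S-phase genes (PCNA1, RNR1 and CYCA3;2), 0 G2/M genes and 5.21% of all promoters. Such matches describe the letters in these windows and do not show binding.

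**Figure D2:**
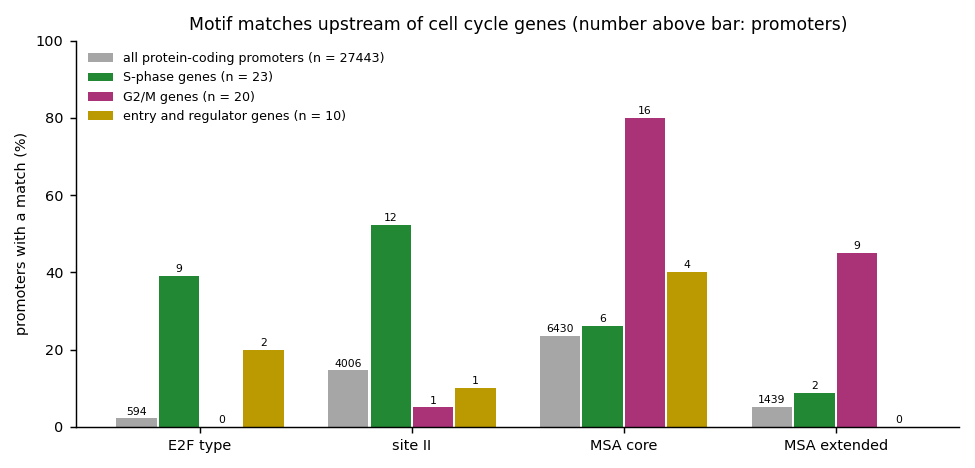
Share of promoters (%, vertical axis) with at least 1 match to each motif in the 300 bases before the gene start, for all protein-coding genes and the 3 groups of cell cycle genes. The number above a bar counts promoters, such as 9 of 23 S-phase genes for the E2F type and 16 of 20 G2/M genes for the MSA core.

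The stretches that hold the motifs are shown for 3 S-phase genes with an E2F-type motif and 3 G2/M genes with an extended MSA motif. They show how near the gene start the motifs lie. The genes are those with the largest called falls on the log2(FPKM + 1) scale. In fold of mean FPKM, CYCB2;1, which also holds an extended MSA motif, fell more (5.19-fold) than CYCB2;2 (4.43-fold) and HINKEL (4.31-fold). CYCB1;2 was added because it held the most matches, 4. Sequences are from the RefSeq genome TAIR10.1, matched by gene identifier because the expression files were made on TAIR9, and are read 5′ to 3′ on the strand of the gene. Capitals mark the E2F-type motif at the MCM genes and the extended MSA motif, in either orientation, at the G2/M genes, and other motifs are not marked. The stretches lie at chr5:18773728-18773906 (minus strand) for MCM3, chr2:3527501-3527549 (minus) for MCM5, chr1:16970170-16970213 (plus) for MCM2, chr3:3627278-3627367 (minus) for CYCB1;3, chr1:6324379-6324419 (minus) for HINKEL, chr4:16901394-16901506 (plus) for CYCB2;2 and chr5:1861704-1861878 (minus) for CYCB1;2.
MCM3: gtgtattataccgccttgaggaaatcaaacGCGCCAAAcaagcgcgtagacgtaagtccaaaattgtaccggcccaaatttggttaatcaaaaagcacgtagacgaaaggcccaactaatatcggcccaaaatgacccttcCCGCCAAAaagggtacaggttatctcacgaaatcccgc
MCM5: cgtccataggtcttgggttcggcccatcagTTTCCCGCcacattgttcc
MCM2: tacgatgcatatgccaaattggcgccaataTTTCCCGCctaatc
CYCB1;3: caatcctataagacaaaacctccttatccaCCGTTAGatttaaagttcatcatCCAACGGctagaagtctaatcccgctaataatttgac
HINKEL: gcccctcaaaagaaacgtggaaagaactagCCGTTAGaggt
CYCB2;2: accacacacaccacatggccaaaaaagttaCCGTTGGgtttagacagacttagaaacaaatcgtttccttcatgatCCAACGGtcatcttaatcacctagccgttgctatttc
CYCB1;2: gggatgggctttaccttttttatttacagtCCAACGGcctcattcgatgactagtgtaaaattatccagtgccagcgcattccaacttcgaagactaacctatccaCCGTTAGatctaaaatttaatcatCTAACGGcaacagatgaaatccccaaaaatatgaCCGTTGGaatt

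Within a phase, genes with and without the E2F-type or extended MSA motif had nearly the same median change, with no test made. The median log2 change was -1.87 for the 7 tested S-phase genes with an E2F-type motif and -1.81 for the 14 without one. It was -1.45 for the 9 tested G2/M genes with the extended MSA motif and -1.44 for the 10 without one. Some of those 10 held the MSA core. Split by the core, the medians were -1.45 for the 15 tested G2/M genes with it and -1.59 for the 4 without it. For site II the medians were -1.96 for the 12 tested S-phase genes with the motif and -1.38 for the 9 without it, with no test made. Over all tested loci of a single protein-coding gene, 50.6% of the 395 with an E2F-type motif were lower, as were 39.2% of the 16721 without one. The shares with and without the motif were 50.3% and 39% for the telobox, 47.4% and 37.7% for site II, 43.6% and 39.2% for the extended MSA motif and 41.9% and 38.7% for its core, with no test made.

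All 11 tested genes of origin licensing fell, by 2.78-fold to 7.42-fold in mean FPKM. Licensing loads the MCM2-7 helicase onto origins that are marked by the origin recognition complex (ORC), with the help of CDC6 and CDT1. ORC6 (AT1G26840), the smallest ORC subunit, stood at 9.07, 9.21 and 8.61 FPKM in DMSO and at 1.19, 1.09 and 1.35 FPKM in NAE 18:3, a change of -2.17 ± 0.08 (SE) in log2 with an adjusted p of 2.2e-08 by limma. Adjusted p-values here and below are Benjamini-Hochberg values over all loci tested. They set each group difference against the variance between the biological replicates that the labels name, which limma moderates across loci. ORC1B (AT4G12620), of the largest subunit, went from 7.57 ± 0.255 to 1.42 ± 0.0889 FPKM (mean ± SD, n = 3 here and below), and ORC2 (AT2G37560) from 3.7 ± 0.337 to 0.804 ± 0.101 FPKM. Every NAE 18:3 library lay below every DMSO library at these ORC genes, as at 39.7% of all tested loci. ORC1A (AT4G14700), the paralog of ORC1B, did not pass the filter, with 0.766, 0.98 and 1.4 FPKM in DMSO and 0.164, 0.229 and 0.194 FPKM in NAE 18:3.

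All 6 helicase genes fell. MCM3 (AT5G46280) fell from 15.9, 16.8 and 16 FPKM to 3.01, 2.8 and 3.37 FPKM, a change of -2.09 ± 0.07 (SE) in log2 with an adjusted p of 1.2e-08 by limma. The falls of MCM2 (AT1G44900), MCM5 (AT2G07690), MCM7 (AT4G02060), MCM6 (AT5G44635) and MCM4 (AT2G16440) were 5.07-fold, 4.75-fold, 3.97-fold, 3.92-fold and 3.66-fold in mean FPKM. At MCM5 the DMSO libraries spread most among the helicase genes, at 30.1, 26.1 and 22.3 FPKM, and still lay far above the 6.54, 4.8 and 5.19 FPKM of the NAE 18:3 libraries. The loading factor CDT1A (AT2G31270) fell from 14.3 ± 0.747 to 2.69 ± 0.0315 FPKM and CDC6A (AT2G29680) from 5.8 ± 0.409 to 2.08 ± 0.169 FPKM, the smallest fold among the licensing genes tested.

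At the replication fork, all 5 tested genes fell. PCNA1 (AT1G07370), which encodes the sliding clamp that tethers DNA polymerases, stood at 37.7, 38.5 and 36.3 FPKM in DMSO and at 5.64, 6.1 and 5.09 FPKM in NAE 18:3. Its change, -2.54 ± 0.06 (SE) in log2(FPKM + 1), was the lowest of the 50 tested genes (adjusted p = 2.1e-09 by limma). In fold of mean FPKM, ORC6 fell more (7.42-fold) than PCNA1 (6.68-fold). PCNA2 (AT2G29570), the close paralog of PCNA1, stood at 38.1, 40.8 and 38.9 FPKM in DMSO and at 9.48, 10.7 and 11.2 FPKM in NAE 18:3. The paralogs were thus nearly level in DMSO, with PCNA1 at 0.933 to 0.988 of PCNA2, whereas PCNA1 stood at 0.455 to 0.594 of PCNA2 in NAE 18:3. This difference was seen before it was computed and is given with no test, and reads of such close copies may be divided with error.

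The catalytic subunits of the replicative polymerases fell to unequal extents. ICU2 (AT5G67100), of polymerase alpha, which starts new strands, went from 12.1, 15.3 and 14.5 FPKM to 3.29, 2.68 and 3.28 FPKM. POL2A (AT1G08260), of polymerase epsilon on the leading strand, fell 3.88-fold, and POLD1 (AT5G63960), of polymerase delta on the lagging strand, fell 2.06-fold to 3.08 ± 0.143 FPKM. CDC45 (AT3G25100), which activates the loaded helicase, was listed at 0 in 2 DMSO and 2 NAE 18:3 libraries, and at 1.04 FPKM in DMSO replicate 1 and 0.0122 FPKM in NAE 18:3 replicate 1. An exact 0 in a table without counts can be a failed estimate, so these values may not be its levels. It was not tested and no fold is given for it.

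Ribonucleotide reductase makes the deoxynucleotides for replication. TSO2 (AT3G27060), a small subunit, was the most abundant of the 53 transcripts in DMSO, at 125, 116 and 121 FPKM, and fell to 21.4, 23.3 and 24.5 FPKM (-2.34 ± 0.05 SE in log2, adjusted p = 1e-09 by limma). The large subunit gene RNR1 (AT2G21790) went from 40.6, 39.8 and 40.3 FPKM to 6.91, 7.4 and 7.67 FPKM (-2.31 ± 0.05 SE in log2, adjusted p = 7.9e-10 by limma). RNR2A (AT3G23580), the other small subunit, fell 2.08-fold, from 17.7, 19.4 and 18.8 FPKM to 8.8, 9.37 and 8.7 FPKM. Within a library TSO2 stood at 5.99 to 7.06 times RNR2A in DMSO and at 2.43 to 2.82 times RNR2A in NAE 18:3, with no test made of this ratio.

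A3-type cyclins act from late G1 into S phase. CYCA3;2 (AT1G47210) fell from 20, 22.7 and 21.1 FPKM to 9.26, 8.45 and 9.41 FPKM. CYCA3;1 (AT5G43080) fell from 6.24, 8.72 and 7.19 FPKM to 2.18, 3.05 and 1.12 FPKM, and at -1.47 ± 0.22 (SE) in log2 it was the least precise of the tested genes (adjusted p = 0.00025 by limma). The groups did not overlap at either gene, which with NAE 18:3 lower held for 39.7% of all tested loci.

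All 8 B-type cyclins fell, by 2.93-fold to 5.25-fold. B-type cyclins activate the kinases that drive entry into mitosis. CYCB1;3 (AT3G11520) fell from 9.89, 10.9 and 8.81 FPKM to 1.67, 1.92 and 2.05 FPKM, a change of -1.91 ± 0.10 (SE) in log2 with an adjusted p of 1.5e-07 by limma. CYCB1;4 (AT2G26760) fell from 14.1, 13 and 14.1 FPKM to 2.83, 3.34 and 3.35 FPKM. CYCB1;1 (AT4G37490), the cyclin often used as a mitotic reporter, went from 3.8 ± 0.379 to 0.968 ± 0.0229 FPKM. CYCB1;2 (AT5G06150), whose promoter is shown above, was the most abundant of the B-type cyclins at 22 ± 0.565 FPKM in DMSO and fell 2.97-fold. Among the B2 cyclins the falls were 5.19-fold for CYCB2;1 (AT2G17620), 4.43-fold for CYCB2;2 (AT4G35620), 3.26-fold for CYCB2;4 (AT1G76310) and 2.93-fold for CYCB2;3 (AT1G20610). The locus of CYCB2;3 was joined by the assembly with AT1G20590, whose own transcript was listed at 0 in all 6 libraries. Of the A2 cyclins, which act from S phase to mitosis, CYCA2;3 (AT1G15570) fell from 11.3, 12.2 and 10.9 FPKM to 5.02, 5.66 and 5.39 FPKM. CYCA2;1 (AT5G25380) did not pass the filter, with 1.33, 1.11 and 1.03 FPKM in DMSO and 0.0961, 0.13 and 0.202 FPKM in NAE 18:3.

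B-type cyclin-dependent kinases are a plant class whose transcripts mark cycling cells. CDKB1;1 (AT3G54180) fell from 14.7, 14.4 and 13.6 FPKM to 3.41, 2.41 and 2.88 FPKM, a change of -1.97 ± 0.10 (SE) in log2 with an adjusted p of 1.3e-07 by limma, and CDKB1;2 (AT2G38620) from 6.06, 5.59 and 4.73 FPKM to 1.51, 1.93 and 1.13 FPKM. The CDKB2 genes peak closer to mitosis. CDKB2;1 (AT1G76540) fell 2.44-fold, from 25.5, 24.9 and 24 FPKM to 9.56, 10.2 and 10.8 FPKM, and CDKB2;2 (AT1G20930) fell 2.25-fold, from 12.4, 11.3 and 12.7 FPKM to 5.23, 5.86 and 5.05 FPKM. Groups were apart, with NAE 18:3 lower, at all 4 genes and at 39.7% of all tested loci.

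The 6 genes of mitosis and cytokinesis also fell. CDC20.1 encodes an activator of the anaphase-promoting complex, and its locus was joined with its neighbour and paralog CDC20.2. The joined locus fell from 54.1, 56.4 and 53.1 FPKM to 11.7, 13 and 12.9 FPKM, a change of -2.04 ± 0.05 (SE) in log2 with an adjusted p of 1.7e-09 by limma. In the deposited transcript values, those of CDC20.1 (AT4G33270) went from 38.2, 39.7 and 37.2 FPKM to 8.22, 8.9 and 9.38 FPKM and those of CDC20.2 (AT4G33260), summed, from 15.9, 16.7 and 16 FPKM to 3.52, 4.07 and 3.48 FPKM. By these values both parts of the locus were lower in every NAE 18:3 library, but reads of such close copies may be divided with error. HINKEL (AT1G18370), a kinesin of the phragmoplast, the structure that builds the new cell plate, fell from 12.9, 13 and 13.8 FPKM to 3.22, 2.85 and 3.13 FPKM. The microtubule bundler MAP65-3 (AT5G51600) fell 3.4-fold and the cytokinesis syntaxin KNOLLE (AT1G08560) 2.48-fold, from 42.8 ± 1.94 to 17.3 ± 0.775 FPKM.

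The aurora kinases, which act at the spindle and the cell plate, differed in their folds. AUR1 (AT4G32830) went from 18.6, 21 and 19.5 FPKM to 5.36, 5.23 and 5.99 FPKM, and AUR2 (AT2G25880) from 15.3, 16.2 and 17.6 FPKM to 10.7, 9.59 and 10.9 FPKM. AUR1 stood at 1.11 to 1.3 times AUR2 in DMSO and at 0.502 to 0.549 times AUR2 in NAE 18:3, with no test made. AUR2 had the smallest log2 change of the G2/M genes tested, -0.61 ± 0.07 (SE, adjusted p = 4.1e-05 by limma).

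Both phases were lower, and within this set of genes those of S phase had the larger median change, a difference described here with no test. All 21 tested S-phase genes and all 19 tested G2/M genes were lower. The median log2 change was -1.81 (range -2.54 to -0.84) for S phase and -1.45 (range -2.04 to -0.61) for G2/M, a difference of -0.36, and the ranges overlapped over most of their length. In mean FPKM, with no pseudocount, the median fold was 4.52 for S phase and 3.57 for G2/M. By library, the S-phase median less the G2/M median, each taken against the DMSO mean, was -0.04, 0.05 and 0.00 for the DMSO libraries and -0.30, -0.41 and -0.31 for the NAE 18:3 libraries. The summed level of the 23 S-phase genes went from 460, 465 and 455 FPKM to 106, 107 and 108 FPKM, and that of the 20 G2/M genes from 311, 314 and 306 FPKM to 98.1, 103 and 101 FPKM. The sums are weighted to abundant genes, of which TSO2 was the first. With the A3 and A2 cyclins and the CDKB1 kinases, whose phase is broad, left out, the difference was -0.37.

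**Figure D3:**
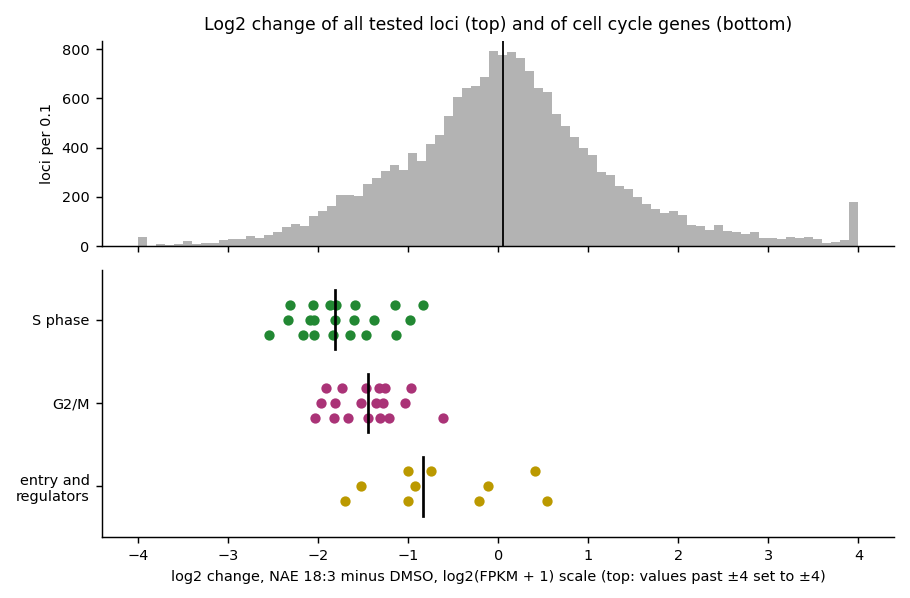
Distribution of the log2 change (NAE 18:3 minus DMSO, log2(FPKM + 1) scale) over all 18194 tested loci as counts per bin of 0.1, with values past 4 in either direction set to 4 (top), and the change of each tested cell cycle gene by group (bottom, vertical lines at the medians). The medians of S phase, -1.81, G2/M, -1.45, and the entry and regulator genes, -0.84, lie left of that of all loci, 0.06.

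The genes of cell cycle entry and regulation did not move as one. Of 10 tested, 7 were lower, 2 were higher and 1 was not called, with a median log2 change of -0.84. The D3 cyclins, which act at cell cycle entry and hold cells in division, spanned a wide range. CYCD3;3 (AT3G50070) fell 3.05-fold, from 31.3, 30.8 and 32.2 FPKM to 9.79, 10.4 and 10.8 FPKM, a change of -1.52 ± 0.05 (SE) in log2 with an adjusted p of 9.1e-09 by limma. CYCD3;1 (AT4G34160) fell 1.96-fold, from 26.7, 23.6 and 25 FPKM to 12.8, 13.4 and 12.1 FPKM. CYCD3;2 (AT5G67260), the most abundant of them, fell 1.16-fold, from 44.1, 45.7 and 44.5 FPKM to 37.3, 40.5 and 38.2 FPKM (-0.21 ± 0.04 SE in log2, adjusted p = 0.0017 by limma). The ratio of CYCD3;3 to CYCD3;2 was 0.675 to 0.724 in DMSO and 0.256 to 0.281 in NAE 18:3, with no test made.

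CDKA;1 (AT3G48750), the kinase partner of D-type cyclins whose transcript is known to be present throughout the cell cycle, was higher. It stood at 24.4, 25.8 and 24.4 FPKM in DMSO and at 37.3, 34.3 and 38 FPKM in NAE 18:3, a change of 0.54 ± 0.05 (SE) in log2 with an adjusted p of 1e-05 by limma. CDKA;1 stayed called higher after upper-quartile scaling, at 0.20, and after quantile normalization, at 0.18.

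Among the E2F factors the activator E2FA (AT2G36010) fell from 5.94, 7.17 and 6.35 FPKM to 2.9, 2.82 and 2.5 FPKM, and E2FC (AT1G47870), mainly described as a repressor, from 10, 10.2 and 9.34 FPKM to 4.99, 4.1 and 4.27 FPKM. E2FB (AT5G22220), a further activator, was called higher at 3.99, 3.11 and 3.03 FPKM in DMSO against 3.96, 5.11 and 5.4 FPKM in NAE 18:3, but its groups overlapped. Its change, 0.41 ± 0.13 (SE) in log2 with an adjusted p of 0.015 by limma, was no longer called with upper-quartile scaling (0.13), with no filter (0.41, adjusted p = 0.075 by limma), or without NAE 18:3 replicate 2 (0.37) or replicate 3 (0.34). RBR1 (AT3G12280), the retinoblastoma protein that holds E2F factors inactive, fell 1.75-fold, from 17.2, 18.2 and 17.4 FPKM to 10.1, 9.61 and 10.4 FPKM.

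Of the MYB3R factors, MYB3R4 (AT5G11510), an activator of G2/M genes, fell from 7.32, 7.72 and 7.36 FPKM to 1.4, 1.72 and 1.73 FPKM, a change of -1.70 ± 0.09 (SE) in log2 with an adjusted p of 1.5e-07 by limma, the largest fall among the entry and regulator genes. MYB3R1 (AT4G32730), which can act as activator and as repressor, stood at 10.6, 12.1 and 11.7 FPKM in DMSO and at 10.8, 10.5 and 10.3 FPKM in NAE 18:3 and was not called (-0.11 ± 0.06 SE in log2, adjusted p = 0.13 by limma). It was called lower with upper-quartile scaling (-0.43), with quantile normalization (-0.26) and without DMSO replicate 1 (-0.16). MYB3R3 and MYB3R5, repressors outside the 53 genes, were higher. MYB3R5 went from 1.92 ± 0.415 to 4.1 ± 0.0618 FPKM (0.82 ± 0.12 SE in log2, adjusted p = 0.00019 by limma). MYB3R3 went from 4.85 ± 0.384 to 7.05 ± 0.586 FPKM, and its log2 change of 0.46 was no longer called with upper-quartile scaling (0.16). Within a library MYB3R4 stood at 0.627 to 0.691 of MYB3R1 in DMSO and at 0.13 to 0.168 of it in NAE 18:3, with no test made.

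**Figure D4:**
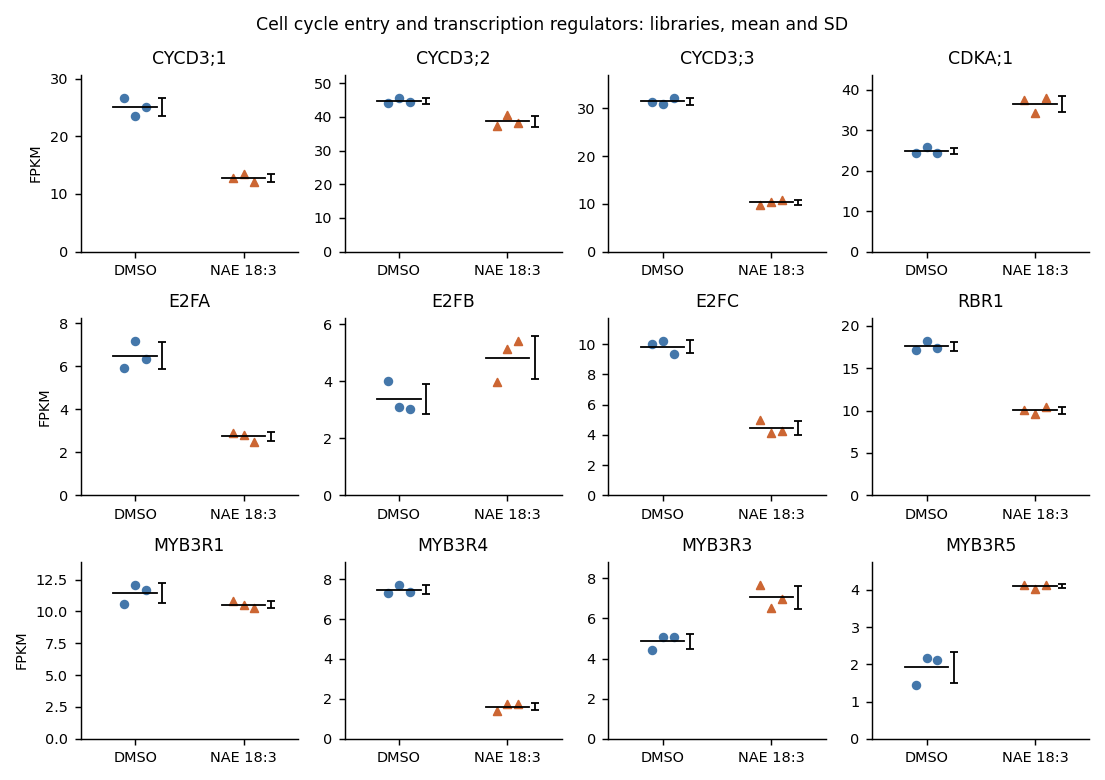
Level in FPKM (vertical axis from 0) of cell cycle entry and transcription regulators in DMSO (circles) and NAE 18:3 (triangles) libraries, with the mean as a line and the SD as a bar (n = 3). MYB3R4 falls from 7.47 to 1.62 FPKM in the mean while MYB3R1 has means of 11.5 and 10.6 FPKM, and MYB3R3, MYB3R5 and CDKA;1 are higher in NAE 18:3.

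Most cell cycle genes outside the set were lower as well, whereas 39.2% of all tested loci were lower and 44.1% were higher. Of 63 further genes from a list of textbook members, 61 were tested, 49 were lower, 4 were higher and 8 were not called, with a median log2 change of -1.21. The median was -1.38 for their S-phase genes and -1.36 for their G2/M genes, so the larger S-phase change was not seen there. With a mean of at least 5 FPKM these medians were -1.26 for S phase and -1.46 for G2/M. Of 22 tested S-phase genes 20 were lower. On the log2(FPKM + 1) scale the largest falls were those of MCM10 and POLA4 (AT5G41880, named POLA3 in the annotation). MCM10, a fork assembly factor, went from 6.9 ± 1.18 to 0.788 ± 0.123 FPKM, and POLA4, a primase subunit, from 12.5 ± 0.906 to 2.56 ± 0.439 FPKM. In fold of mean FPKM, CDC6B fell more (8.3-fold) than POLA4 (4.86-fold), with DMSO libraries at 5.93, 1.7 and 3.44 FPKM. Of 18 tested G2/M genes 16 were lower, the largest falls being those of POK1, a kinesin that orients the phragmoplast, with a log2 change of -1.89, and CKS2, a kinase subunit, with -1.79. Of 21 tested regulators 13 were lower, with the largest falls at DEL1, an atypical E2F, -1.89, and WEE1, a kinase that restrains the cycle, -1.60, and 3 were higher. Besides MYB3R5, the larger of the rises was that of CDKF;1, a kinase that activates other kinases, from 16.2 ± 0.711 to 23.4 ± 0.901 FPKM (log2 change 0.50). The 1 higher G2/M locus was that of CYCA2;4, joined with its neighbour AT1G80380. The deposited transcript values assigned to CYCA2;4 there summed to 2.66, 2.42 and 2.49 FPKM in DMSO and 1.95, 1.36 and 1.12 FPKM in NAE 18:3, while those of AT1G80380 went from 55.1, 55.7 and 55.3 FPKM to 515, 528 and 528 FPKM, so that the rise of the joined locus lay in the transcripts of the neighbour.

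Tissue markers were not uniform in direction. For comparison with the counts below, 39.2% of all tested loci were lower, 44.1% were higher and 83.2% were called either way. The 8 root markers, chiefly genes of differentiated root cells, summed to 2765 to 2861 FPKM in DMSO and 1161 to 1186 FPKM in NAE 18:3, mostly PYK10, a beta-glucosidase of root cells. All 7 tested root markers were lower, with a median log2 change of -1.24. The locus of CASP2, 1 of the 7, was joined with AT3G11540, so its change of -0.25 is that of the joined locus. The 4 green shoot markers were higher in FPKM, summing to 31742 to 33053 in DMSO and 63996 to 68487 in NAE 18:3. All 4 stayed called higher with upper-quartile scaling. After quantile normalization LHCB2.1 (1.43 in log2) and LHCA3 (0.49) were still called higher, and RBCS1A and LHCB1.3, both at -0.00, were not called. That normalization gives each rank the same value in every library. It therefore cannot show a change of a very abundant gene that keeps its rank, and the values of -0.00 do not bear on the rise. Of 12 meristem markers 9 were tested, of which 5 were lower, 2 were higher and 2 were not called, and the sum of the 12 ranged, with overlap between the groups, from 86.9 to 93.3 FPKM in DMSO and from 83.8 to 89.9 FPKM in NAE 18:3. Opposite changes offset each other in this sum, as KNAT1 went from 20.7 to 14.5 FPKM and CLV1 from 14.8 to 24.6 FPKM in the mean. Among the tested markers PLT1, of the root meristem, fell from 2.01, 2.15 and 1.56 FPKM to 0.283, 0.334 and 0.126 FPKM, and BBM, KNAT1, ANT and AIL6 were also lower. WOX5, of the root stem cell niche, went from 4.5, 6.03 and 6.6 FPKM to 8.17, 10.8 and 9.94 FPKM, CLV1 was also higher, and SCR and STM were not called. SCR was called lower with upper-quartile scaling (-0.35) and quantile normalization (-0.33), and STM higher with quantile normalization (0.46). PLT2, which did not pass the filter, went from 1.5 ± 0.214 to 0.108 ± 0.0269 FPKM. WUS and CLV3, which define the shoot stem cell niche, were under 1 FPKM in every library. All 4 stomatal lineage markers were lower, summing to 29.9 to 33.4 FPKM in DMSO and 9.47 to 10.4 FPKM in NAE 18:3. The part of any of these markers in the fall of the cell cycle genes was not tested.

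The scale of the table touches the size of each change. Summed FPKM over all loci was higher in the NAE 18:3 libraries, and scaling the libraries to a common upper quartile took the median over all loci from 0.06 to -0.25 in log2. Calls over all loci were then 5857 higher and 9497 lower, against 8018 higher and 7125 lower on the deposited scale. The cell cycle genes were then further down, with medians of -2.12 for S phase and -1.76 for G2/M. The depth of the libraries, read from the steps of the lowest values, ranged from 0.482 (DMSO replicate 1) to 1.27 (NAE 18:3 replicate 3) relative to NAE 18:3 replicate 1. Only 21.4% to 26.3% of the compared loci lay at that step, so these relative depths are rough, and the absolute depth is unknown.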

How the data were processed

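Total RNA of whole seedlings was made into Illumina TruSeq libraries and sequenced, per the labels. The authors processed the reads with TopHat, Cufflinks and Cuffdiff against TAIR9, per the submitters' processing notes, and deposited FPKM values per transcript and per locus (no versions or settings are given in the sources used here). Columns were matched to samples through the sample descriptions, and 4 columns headed as merged were not used. FPKM holds no total count, and relative depth was read from values under 0.3 FPKM.

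The locus FPKM of all loci with a mean of at least 1 was fitted as log2(FPKM + 1) with limma 3.58.1 in R 4.3.3, group as the only term, with a mean-variance trend, and p-values were adjusted by the Benjamini-Hochberg method over 18194 loci. The fit was tested on simulated data. Folds are ratios of mean FPKM. Joined loci (2 of the 53 genes) were kept. Of 65 further cell cycle genes written down, 2 were dropped, 1 for a symbol that the annotation gives to another gene and 1 for sharing a locus with CDC20.1. Promoters were taken by gene identifier from RefSeq TAIR10.1, a release known to have kept the TAIR9 chromosome sequences. Symbols of the further genes were written down beforehand and checked against that annotation, which uses other symbols for some of them. The rule for named genes ranks by log2 change. Values in every library are given for the 2 largest called changes in each direction per role. The 2 largest per class of the further genes are named, and values are also given for close paralogs. MYB3R3, CDC6B, the CYCB1;2 promoter and the ratios between paralogs were added after their values were seen. The genes, lists, phases and tests were chosen with earlier results of these data known. Alternatives were other pseudocounts, filters and scalings, a replicate block, array weights, single libraries left out, joined loci left out and stricter phases.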

Additional observations from a re-analysis of the deposited data

How the results depend on the processing

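The count of 47 lower genes ranged from 37 (mean of at least 5 FPKM, which tests fewer genes) to 49 (no filter), and all 47 stayed lower and called wherever they were tested. The count of 2 higher genes, both of the entry and regulator group, fell to 1 with a mean of at least 5 FPKM, with no filter and with upper-quartile scaling, and ranged from 1 to 2 with single libraries left out, each time through E2FB. The median log2 change was -1.49 over the tested genes, and -1.85 with a pseudocount of 0.1, -1.60 with at least 5 FPKM and -1.80 with upper-quartile scaling. For S phase it was -2.07, -1.96 and -2.12 in the same order, and -1.88 with quantile normalization. For G2/M it was -1.80 with a pseudocount of 0.1, -1.76 after upper-quartile scaling and -1.53 after quantile normalization. For the entry and regulator genes it was -0.88 with a pseudocount of 0.1, -0.75 with at least 5 FPKM, -1.17 after upper-quartile scaling and -0.91 after quantile normalization. The S-phase minus G2/M difference was -0.27 with a pseudocount of 0.1 and -0.47 with at least 5 FPKM. With single libraries left out, the medians ranged from -1.56 to -1.46 over the tested genes, from -1.83 to -1.79 for S phase, from -1.49 to -1.38 for G2/M and from -0.84 to -0.82 for the entry and regulator genes, and the difference from -0.42 to -0.33. Of the further cell cycle genes, an alternative added after the data were seen, 27 rather than 49 were lower with at least 5 FPKM, where fewer were tested. The cause of these shifts was not tested, other than that low genes are compressed by a pseudocount of 1. Replicate numbers did not pair the libraries (correlations of same-numbered deviations -0.0133, -0.00872 and 0.0182), and with the replicate block 47 genes were lower and 2 were higher. Counting intervals cannot be given without depth, and ORC1A and CYCA2;1, under the filter, and CDC45, listed at 0 in 4 libraries, were not tested.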
